A study of Mus musculus with 24 samples.

Results

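Polyamine metabolism was described in mouse quadriceps femoris muscle by 8 genes, taken by their symbols from a table of 18669 genes listed by NCBI gene number. Odc1, Amd1, Srm and Sms encode the enzymes that build polyamines, Smox and Sat1 encode enzymes that break them down, and Azin1 and Oaz2 encode proteins that act on ornithine decarboxylase. The 8 genes were chosen for their function with earlier results of these data known. RNA was sequenced from 24 mice, 2 in each of 12 groups, which combined 3 genotypes with 4 treatments. The genotypes were wild type, R6/2 and Hsf1-/-, all on a CBA x C57BL/6 F1 background according to the labels. R6/2 mice carry a transgene for exon 1 of mutant human huntingtin and are a rapidly progressing model of Huntington's disease, and Hsf1-/- mice are homozygous knockouts of heat shock factor 1, the main transcription factor of the heat shock response. For heat shock (HS), anaesthetized mice were warmed until the body core reached 41.5 °C and stayed there for 15 min, while controls had the same isoflurane anaesthesia for 21 min at 36.9 °C. HSP990, an inhibitor of the chaperone HSP90, was given by oral gavage at 12 mg/kg as a suspension in methyl cellulose and saline, and the vehicle mice received saline by gavage. Muscle was taken 4 h after treatment. Wild type and R6/2 mice were 12 weeks old, while the Hsf1-/- mice were 10 weeks old in the HS experiment and 8 weeks old in the HSP990 experiment.

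Polyamines are small positively charged molecules that bind nucleic acids and are needed for growth and protein synthesis. Ornithine decarboxylase makes putrescine from ornithine, S-adenosylmethionine decarboxylase (Amd1) supplies the aminopropyl groups, and spermidine synthase (Srm) and spermine synthase (Sms) add these groups to give spermidine and then spermine. Spermine oxidase (Smox) turns spermine back into spermidine, and spermidine/spermine N1-acetyltransferase (Sat1) marks polyamines for export or oxidation. Antizymes such as Oaz2 bind ornithine decarboxylase and send it to the proteasome, and antizyme inhibitors such as Azin1 take antizyme away from it. In skeletal muscle, Smox is abundant and its transcript is known to fall when muscle wastes, and the enzymes of polyamine synthesis are known to follow growth and androgen signals.

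The libraries held 22450177 to 46599238 counts, and a level is given here as CPM, the counts of a gene relative to the size of its library, after TMM scaling, which corrects for differences in library composition. Hsf1 transcripts were at 21.1 to 29.0 CPM in the 8 Hsf1-/- mice. They were at 52.9 to 68.5 CPM in wild type and at 45.3 to 53.7 CPM in R6/2 mice. Hsf1 counts were thus lower but not absent in Hsf1-/- mice, and they do not by themselves show the knockout. Transcripts of 4 Y-linked genes had 0 to 4 counts in 8 libraries, those of all wild type and R6/2 mice of the HS experiment, and at least 3916 counts in the other 16. R6/2 and wild type mice were therefore matched in Y-linked expression within each experiment, but the experiments were not matched to each other in these genotypes. The 6 markers of skeletal muscle fibres tested (Ckm, Acta1, Tnnt3, Mb, Myh4 and Myh1) were abundant in every library, with a summed level of 32661 to 74826 CPM in R6/2 and of 166203 to 224948 CPM in the other mice. In these bulk samples, fewer fibres and less RNA per fibre cannot be told apart. The TMM factor was between 1.19 and 1.40 for R6/2 mice and between 0.808 and 0.954 for all other mice, so that R6/2 levels depend on this scaling.

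On the mm9 build the members lie on 7 chromosomes. Smox (gene 228608) is at chr2:131317232-131351658, Amd1 (11702) at chr10:40007265-40021992, Odc1 (18263) at chr12:17551679-17558308 and Srm (20810) at chr4:147965612-147969102. Sat1 (20229) and Sms (20603) are both on the X chromosome, at chrX:151647675-151650992 and chrX:153881787-153930219. Azin1 (54375) is at chr15:38417185-38449021 and Oaz2 (18247) at chr9:65515808-65538107. No member shares exonic bases with another annotated gene. The Amd1 transcript has 3 near-identical copies elsewhere in the genome, so that Amd1 counts are uncertain. The most complete of them, at chr10:35428496-35431697, covers 99.8% of the transcript. The most complete copy of Sat1, at chr5:30120705-30121754, covers 90.2% of its transcript. Its divergence of 0.0219 is just over the limit of 0.02 used for near-identical copies, so that Sat1 counts are uncertain as well. For the other members no copy was found within that limit.

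The 250 bases before the RefSeq transcription starts of Smox, Amd1 and Odc1 on GRCm38.p6 are shown, in the direction of transcription, because these were the members with the largest falls in untreated R6/2 muscle. Capitals mark the GC box, GGGCGG on either strand.
Smox (chr2:131491612-131491861, plus strand): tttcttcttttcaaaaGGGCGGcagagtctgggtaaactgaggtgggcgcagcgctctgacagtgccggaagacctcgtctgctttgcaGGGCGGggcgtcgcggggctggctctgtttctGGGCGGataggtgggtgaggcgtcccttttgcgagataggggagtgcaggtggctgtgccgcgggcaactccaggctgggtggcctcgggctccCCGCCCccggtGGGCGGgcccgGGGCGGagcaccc
Amd1 (chr10:40302189-40302438, minus strand): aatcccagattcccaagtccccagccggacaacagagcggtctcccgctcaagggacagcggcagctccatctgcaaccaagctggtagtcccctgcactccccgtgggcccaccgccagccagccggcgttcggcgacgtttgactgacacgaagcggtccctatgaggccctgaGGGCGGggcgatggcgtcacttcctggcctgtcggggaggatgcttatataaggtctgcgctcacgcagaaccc
Odc1 (chr12:17544623-17544872, plus strand): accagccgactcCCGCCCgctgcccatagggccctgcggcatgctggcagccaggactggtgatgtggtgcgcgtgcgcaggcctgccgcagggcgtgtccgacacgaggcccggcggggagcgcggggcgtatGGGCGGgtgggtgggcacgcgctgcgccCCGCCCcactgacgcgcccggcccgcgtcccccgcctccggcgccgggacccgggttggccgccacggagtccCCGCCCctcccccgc
The Smox window held 6 GC boxes, the Odc1 window 4 and the Amd1 window 1, and 32.7% of 32851 RefSeq promoters of this length held at least 1. Their GC contents were 68.0%, 80.0% and 64.4%, against a median of 52.4% over all promoters. No match was found in these windows on either strand to the E-box CACGTG (held by 6.02% of promoters), the steroid receptor unit AGAACA (16.1%), the cAMP response element TGACGTCA (1.55%), the TATA box TATAAA (12.4%) or facing heat shock units GAANNTTC (6.69%). As the GC box was the motif found there, no matches of different motifs overlapped. Only exact strings were sought, and the Amd1 window holds tataag, which differs from TATAAA in its last base. Among the other members with an entry, Oaz2 and Sat1 each had 1 AGAACA, and Sms had 1 CACGTG in 1 of its 2 windows.

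Per kilobase of exon, Smox had the highest level of the 8 genes in untreated wild type muscle, 152 CPM per kb, followed by Amd1 (40.3), Oaz2 (35.6), Sms (22), Azin1 (12.9), Odc1 (10.9), Srm (7.36) and Sat1 (4.11). In untreated R6/2 muscle the order was led by Oaz2 with 47.1 CPM per kb, and Smox stood at 10.9 CPM per kb, below Sms (21.7) and Amd1 (12.4). The lowest count of a member in any library was 149, for Srm, and Smox had 1396 to 31927 counts, and the mice of a group differed by more than counting error, their chi-square over its degrees of freedom being 19.4 to 111 over all genes.

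The comparison in which most members passed the test was that of untreated R6/2 with untreated wild type muscle, where untreated means the control and vehicle mice of a genotype. In R6/2 mice Smox, Amd1, Odc1 and Srm were lower and Oaz2 was higher, and 5 of 8 members passed the test. In this comparison 30.5% of all 13754 genes tested passed it, 2075 upwards and 2119 downwards. The median log2 fold change was -0.57 over the members and 0.05 over all genes. Within the HS controls 1 of 8 members passed, against 12.4% of all genes, and within the vehicle mice 4 of 8, against 19.2%. A gene passed at a Benjamini-Hochberg adjusted p below 0.05 over all genes in edgeR's quasi-likelihood test, and the fold changes over both experiments average the log2 differences within each.

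**Figure D1:**
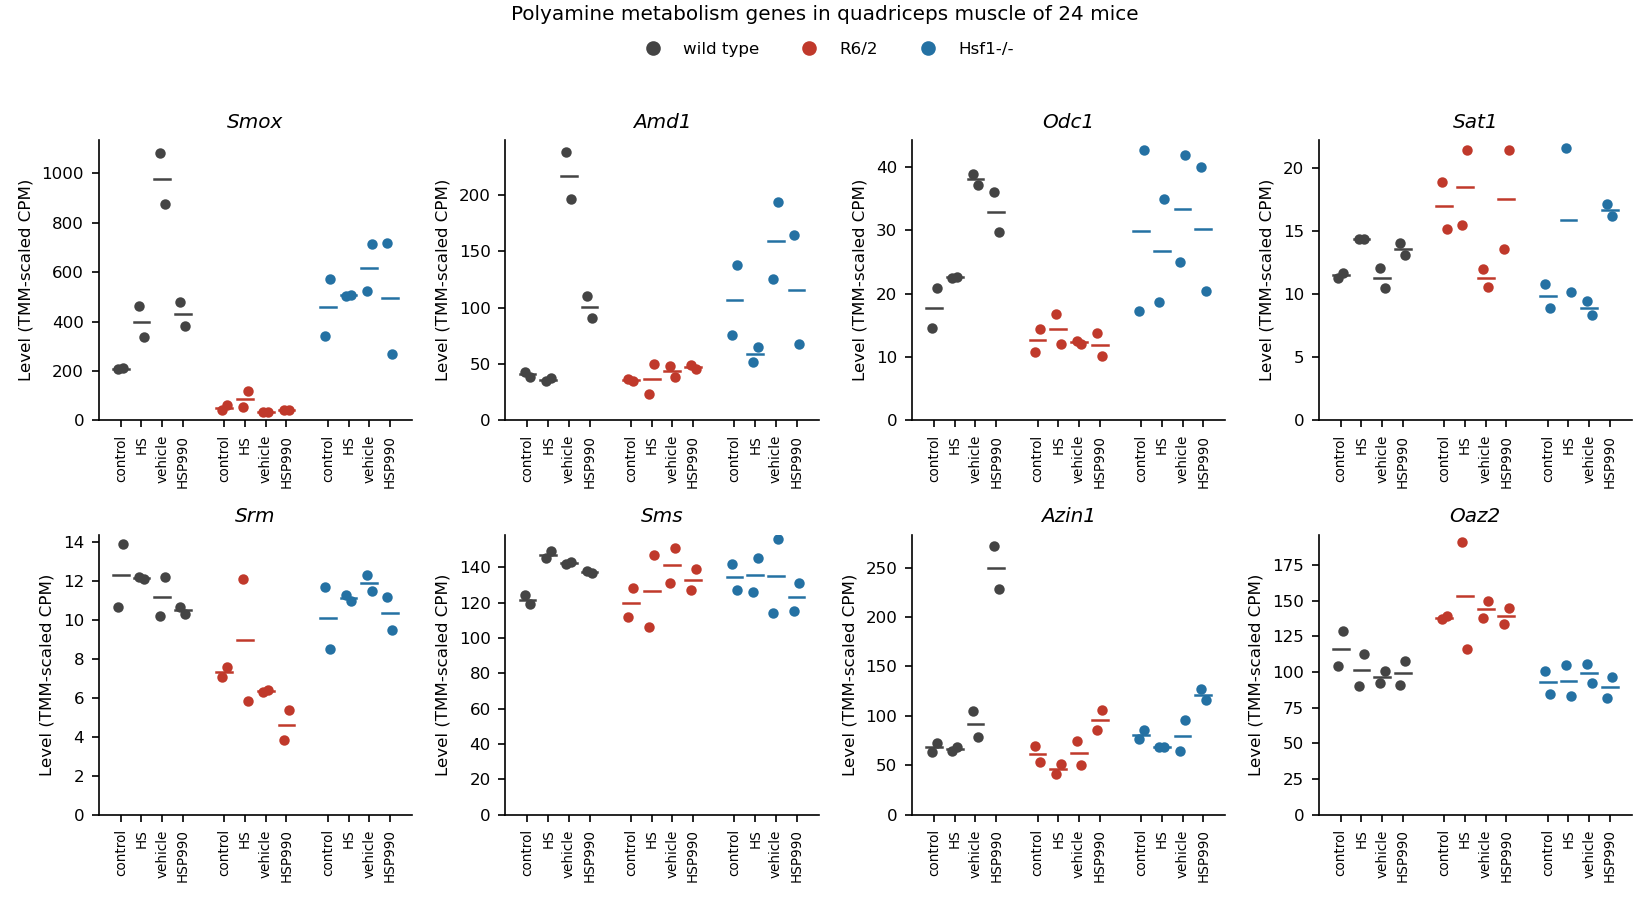
Level of the 8 genes in each of 24 mice (y axis, TMM-scaled CPM from 0, with its own scale for each gene) in 12 groups (x axis, control, HS, vehicle and HSP990 in 3 genotypes), where points are mice and lines are the means of 2 mice. Smox in R6/2 mice stayed at 31.9 to 117 CPM, under the 206 to 1083 CPM of wild type mice, and Azin1 stood highest in wild type mice given HSP990, at 228 and 272 CPM.

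Of the synthesis genes, Odc1 is the entry enzyme. Its level in untreated wild type mice was 14.6 and 20.8 CPM in the controls and 38.8 and 37.2 CPM with vehicle. In untreated R6/2 mice it was 10.8 and 14.4 CPM and 12.5 and 12.1 CPM. The R6/2 mice lay just below the lower wild type control and far below the wild type vehicle mice. Odc1 fell by 1.06 on the log2 scale (SE 0.282, adjusted p = 0.0091) over both experiments and fell by 1.63 (SE 0.402, adjusted p = 0.009) in the vehicle mice, while in the controls the log2 fold change was -0.49 (95% interval -1.36 to 0.38, adjusted p = 0.48). The vehicle call did not hold when R6/2 vehicle replicate 1 was left out (adjusted p = 0.058) or when replicate 2 was (adjusted p = 0.06).

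Amd1 makes the donor of aminopropyl groups. It stood at 43.1 and 38.5 CPM in wild type controls and at 37.0 and 34.5 CPM in R6/2 controls, a log2 fold change of -0.19 (95% interval -1.0 to 0.62, adjusted p = 0.80). With vehicle it stood at 238 and 196 CPM in wild type and at 48.5 and 38.5 CPM in R6/2 mice. The wild type vehicle mice were the high ones, and the R6/2 vehicle mice were close to the controls of both genotypes. Amd1 fell by 2.32 (SE 0.387, adjusted p = 6.0e-04), or 4.99-fold, in the vehicle mice. Over both experiments it fell by 1.25 (SE 0.266, adjusted p = 0.0019), although the untreated wild type and R6/2 mice overlapped across experiments.

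Srm, spermidine synthase, was lower in all 4 untreated R6/2 mice than in any untreated wild type mouse. The controls had 10.7 and 13.9 CPM in wild type and 7.07 and 7.60 CPM in R6/2, and the vehicle mice 10.2 and 12.2 CPM against 6.32 and 6.40 CPM. It fell by 0.78 on the log2 scale (SE 0.184, adjusted p = 0.004). The log2 fold changes of the 2 experiments were -0.75 (adjusted p = 0.07) in the controls and -0.82 (adjusted p = 0.036) in the vehicle mice, and the vehicle call did not hold with any 1 of its 4 mice left out (adjusted p of 0.071 to 0.19). Sms, spermine synthase, ranged from 119 to 143 CPM in untreated wild type and from 112 to 151 CPM in untreated R6/2 mice. The groups overlapped fully, and the log2 fold change was -0.02 (95% interval -0.26 to 0.22, adjusted p = 0.92).

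Of the catabolic genes, Smox differed most. It was at 206 and 210 CPM in wild type controls and at 42.9 and 60.0 CPM in R6/2 controls. With vehicle it was at 1083 and 875 CPM in wild type and at 31.9 and 34.4 CPM in R6/2 mice. Every untreated R6/2 mouse was below every untreated wild type mouse, in both experiments. Smox fell by 3.45 on the log2 scale (SE 0.296, adjusted p = 6.4e-07), which is 10.9-fold lower. It fell by 2.02 (SE 0.395, adjusted p = 0.0038) in the controls and fell by 4.88 (SE 0.447, adjusted p = 8.5e-06), or 29.5-fold, in the vehicle mice. With R6/2 control replicate 1 left out, the call in the controls did not hold (log2 fold change -1.79, adjusted p = 0.081).

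Sat1, the acetyltransferase, had 10.5 to 12.1 CPM in the 4 untreated wild type mice and 10.6 to 18.9 CPM in the 4 untreated R6/2 mice. The R6/2 controls, at 18.9 and 15.2 CPM, were above all of these wild type mice, and the R6/2 vehicle mice, at 12.0 and 10.6 CPM, were among them. The log2 fold change over both experiments was 0.28 (95% interval -0.14 to 0.70, adjusted p = 0.29).

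Of the regulators, Oaz2 was at 104 and 129 CPM in wild type controls, at 92.2 and 101 CPM in wild type vehicle mice and at 137 to 150 CPM in the 4 untreated R6/2 mice. The R6/2 mice were all above the wild type mice. Oaz2 rose by 0.41 (SE 0.14, adjusted p = 0.035), but leaving out any of 7 of the 8 mice raised the adjusted p to between 0.052 and 0.14, and leaving out wild type control replicate 2 gave 0.032. In the vehicle mice its log2 fold change was 0.57 (adjusted p = 0.053), and DESeq2 (adjusted p = 0.032) and a fit of the 4 libraries alone (adjusted p = 0.028) called it there. Azin1 had 63.2 to 105 CPM in untreated wild type and 50.1 to 74.7 CPM in untreated R6/2 mice, with overlap, and a log2 fold change of -0.35 (95% interval -0.68 to -0.02, adjusted p = 0.093). In the vehicle mice, where the genotypes did not overlap, it was -0.56 (adjusted p = 0.081). Without R6/2 vehicle replicate 1, Azin1 was called lower over both experiments (-0.51, adjusted p = 0.027) and in the vehicle mice (-0.88, adjusted p = 0.034). Scaling by library size alone put the median over all genes at 0.66. It turned those of Azin1 (0.26) and Sms (0.59) positive and left those of Odc1 (-0.45, adjusted p = 0.17) and Srm (-0.18, adjusted p = 0.44) without a call. Under it Smox (-2.84), Amd1 (-0.65), Oaz2 (1.02), Sat1 (0.89) and Sms passed.

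**Figure D2:**
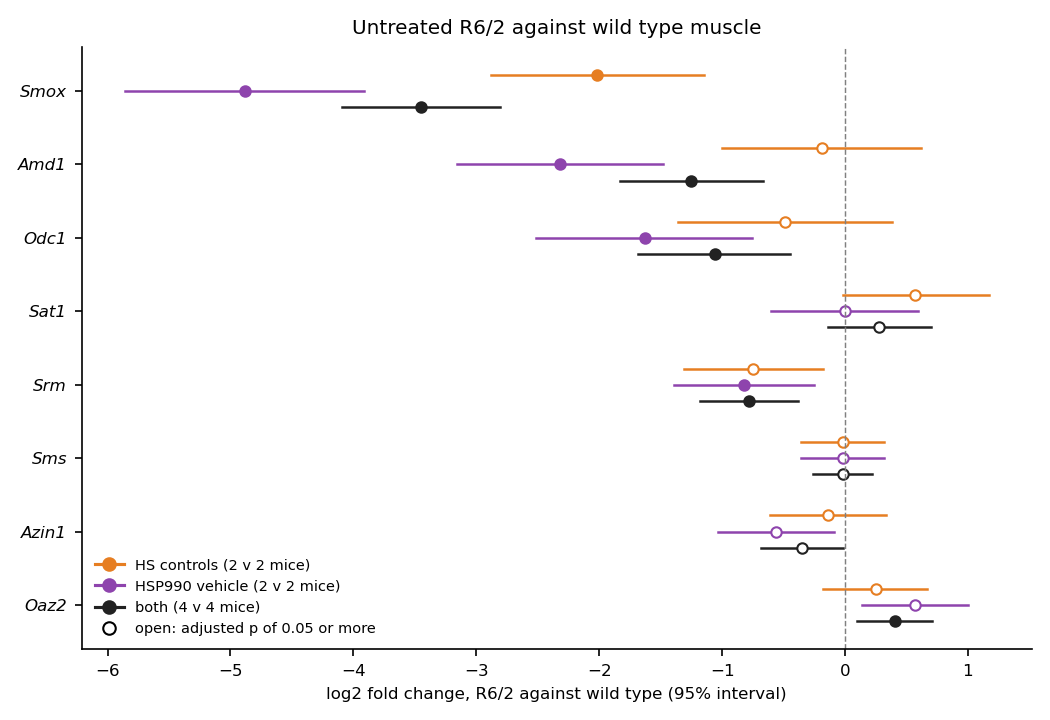
Fold change of the 8 genes between untreated R6/2 and wild type muscle (x axis, log2 with 95% interval) in the HS controls, in the HSP990 vehicle mice and over both, with filled points for an adjusted p below 0.05. Smox lies far to the left in each, at -2.02, -4.88 and -3.45, and Amd1 is at -0.19 in the controls and at -2.32 in the vehicle mice.

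Markers of muscle fibres also differed between untreated R6/2 and wild type mice. All 6 fibre markers fell in untreated R6/2 mice, with a median log2 fold change of -2.07, and their summed level was 32661 to 59490 CPM against 168505 to 200026 CPM in wild type. The adipocyte markers had a summed level of 55.9 to 124 CPM against 83.2 to 652 CPM, with 2 of 5 lower by the test. Of 5 leukocyte and of 3 endothelial markers edgeR called 0, with 1 of each at an unadjusted p below 0.05, and DESeq2 called 0 and 1. Their summed levels were 24 to 30 CPM against 18.7 to 30.6 CPM and 274 to 296 CPM against 285 to 352 CPM. Of 3 fibroblast markers edgeR called Pdgfra, which rose by 0.48, while Col1a1 (-0.50) and Dcn (0.02) had no call. The summed fibroblast level was 517 to 651 CPM against 517 to 813 CPM. Of 2 Schwann cell markers and 1 smooth muscle marker tested, 0 were called by edgeR or DESeq2 and 0 were at an unadjusted p below 0.05. No summed level was at 0. The part of these cell types in the polyamine gene differences was not tested.

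The other genes of the pathway were called lower and higher in untreated R6/2 muscle. Besides the 8 members, 20 pathway genes were tested of 25 listed, and 10 of them passed, 3 upwards and 7 downwards, with a median log2 fold change of -0.07, where 30.5% of all genes passed. In the controls 2 of 20 passed, Apip and Eif5a, where 12.4% of all genes did, and in the vehicle mice 8 of 20, where 19.2% did. The count in the controls was no higher than that background. Without R6/2 control replicate 1 the number was 6. Of the 25, 3 were not in the table (Amd2, Atp13a3 and Slc18b1) and 2 were below the filter (Oaz3 and Arg2). The 8 genes called in the vehicle mice were Apip, Eif5a, Mat2a, Adi1, Sat2, Azin2, Agmat and Atp13a2. Mtap and Eif5a2 were called over both experiments but in neither experiment alone. For Mat2a, Azin2 and Eif5a2 the untreated R6/2 and wild type mice overlapped across experiments.

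Of 7 genes that supply S-adenosylmethionine or salvage methionine from the methylthioadenosine left by polyamine synthesis, 4 fell and 0 rose, with a median log2 fold change of -0.47, where 2119 of all 13754 genes fell. Apip, a dehydratase of the salvage pathway, fell by 0.83 (SE 0.114, adjusted p = 4.8e-05), from a mean of 27.5 to 15.6 CPM. Mtap, the phosphorylase that opens the salvage pathway, fell by 0.55 (adjusted p = 0.021). Mat2a, the catalytic subunit that makes S-adenosylmethionine, fell by 0.48 (adjusted p = 0.018), and Adi1, a later salvage enzyme, fell by 0.46 (adjusted p = 0.0085). Hypusination is the spermidine-dependent modification of the translation factor eIF5A. Of 4 genes, Eif5a itself fell by 0.47 (adjusted p = 3.8e-05) from 317 to 230 CPM, and Eif5a2, its less abundant paralog, rose by 0.74 (adjusted p = 0.009), from 2.56 to 4.23 CPM. The enzymes Dhps and Dohh, which make hypusine, had log2 fold changes of -0.07 and -0.06 and no call.

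The catabolic list of 4 genes included Sat2 as a paralog of Sat1, and the activity of its product on polyamines was not tested. Sat2 rose by 1.05 (adjusted p = 0.0017) from 2.73 to 5.67 CPM. Smox fell, and Paox, the oxidase of acetylated polyamines, had no call (log2 fold change -0.29, adjusted p = 0.58). Of the regulators of ornithine decarboxylase, Azin2 fell by 0.70 (adjusted p = 0.022), and Oaz1, the antizyme most tissues rely on, had a log2 fold change of 0.34 (adjusted p = 0.063). Of the genes of polyamine transport, the lysosomal exporter Atp13a2 fell by 0.51 (adjusted p = 0.0048) and Slc3a2 had a log2 fold change of 0.00. Of the genes of ornithine supply, Oat, ornithine aminotransferase, had a log2 fold change of 0.02 (adjusted p = 0.91) and Arg1 no call. Agmat, annotated as agmatinase, which makes putrescine from agmatine, was nearly absent from untreated wild type libraries, with counts of 0, 3, 0 and 0, and had 14, 29, 28 and 27 counts in untreated R6/2 libraries. It was called higher (adjusted p = 0.0057), and no fold is given because the wild type counts were at or under 3.

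**Figure D3:**
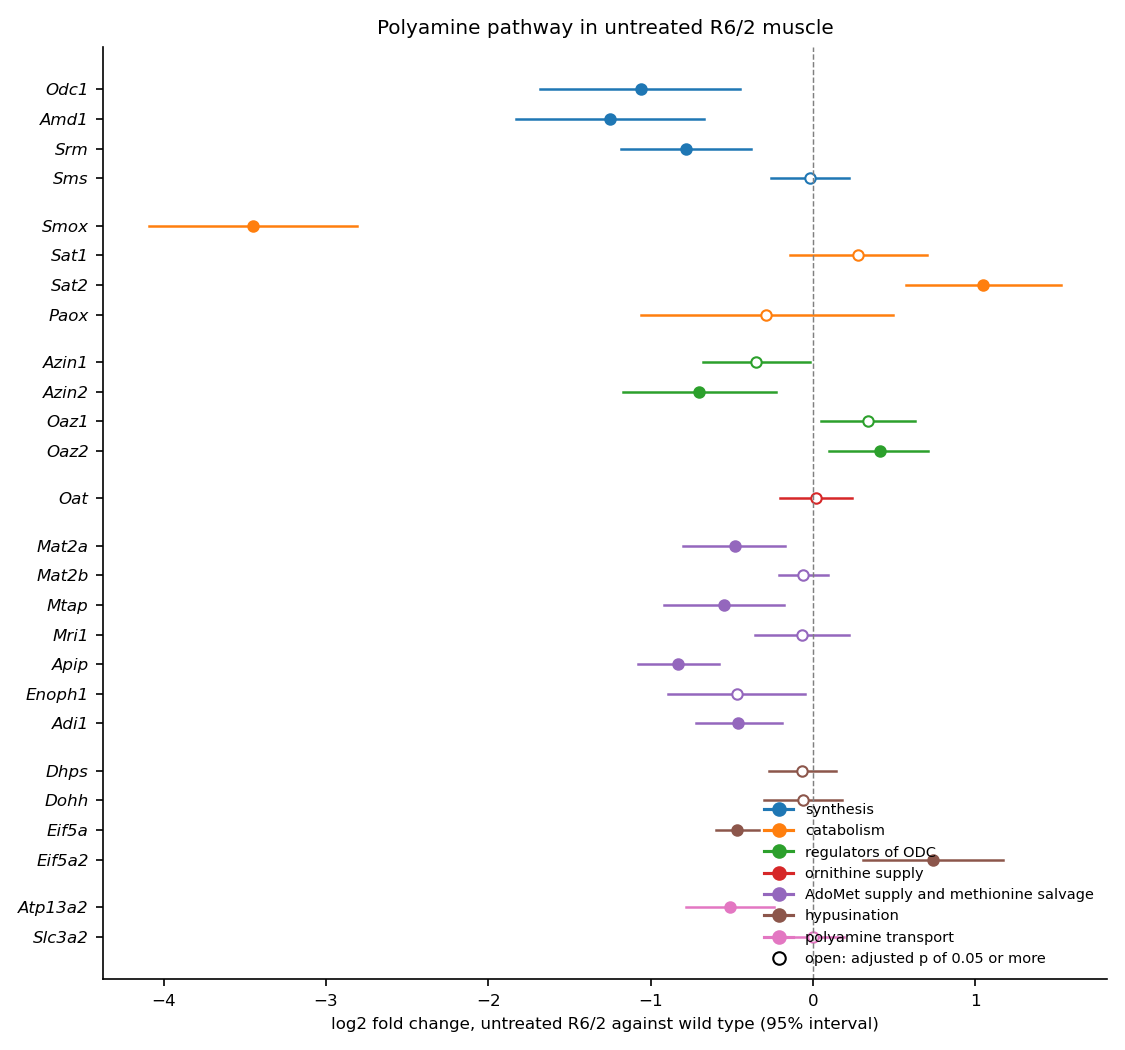
Fold change of the polyamine pathway genes between untreated R6/2 and wild type muscle (x axis, log2 with 95% interval), grouped and coloured by role, with filled points for an adjusted p below 0.05. Genes with means under 1 CPM in both genotypes are not drawn. Smox at -3.45 lies furthest from 0, and of the synthesis genes Odc1, Amd1 and Srm are below 0 with filled points while Sms is at -0.02.

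Of 12 genes linked to denervation and atrophy, 6 rose in untreated R6/2 muscle and 0 fell, with a median log2 fold change of 0.79, where 2075 of all 13754 genes rose and 30.5% passed in either direction. Cdkn1a, a cell cycle inhibitor, rose by 2.61, Runx1 by 2.39, Chrna1, a subunit of the acetylcholine receptor, by 1.87 and Musk, the kinase of the neuromuscular junction, by 1.37. The ubiquitin ligases of atrophy, Fbxo32 and Trim63, had log2 fold changes of -0.58 (adjusted p = 0.06) and 0.54 (adjusted p = 0.099). The list was chosen with earlier results of these data known.

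In wild type muscle Smox and Amd1 were higher in the vehicle mice than in the HS controls. Smox rose from 206 and 210 CPM to 1083 and 875 CPM, by 2.23 on the log2 scale (SE 0.397, adjusted p = 0.024), or 4.70-fold. Amd1 rose from 43.1 and 38.5 CPM to 238 and 196 CPM, by 2.41 (SE 0.389, adjusted p = 0.017), or 5.33-fold. Odc1, at 14.6 and 20.8 CPM against 38.8 and 37.2 CPM, did not overlap either, with a log2 fold change of 1.10 (95% interval 0.23 to 1.97, adjusted p = 0.23). These 2 of 8 members were called against 0.24% of all genes. Neither call held with any 1 of the 4 mice left out, where the adjusted p was 0.063 to 0.29 for Smox and 0.051 to 0.26 for Amd1. Anaesthesia and heating pad, gavage, the experiment and Y-linked expression, which was at 0 counts in these controls, all differ between the vehicle and control mice and cannot be told apart.

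In R6/2 mice no member was called between vehicle and control, against 0.0654% of all genes, 1 member had an unadjusted p below 0.05 and DESeq2 called 0. Smox was at 42.9 and 60.0 CPM in the controls and at 31.9 and 34.4 CPM with vehicle, so that it was lower with vehicle where it was higher in wild type mice. In Hsf1-/- mice, in which Y-linked genes were expressed in both experiments, no member was called either, against 0% of all genes (966 at an unadjusted p below 0.05, 14 called by DESeq2), 0 members had an unadjusted p below 0.05 and DESeq2 called 0. Smox there was at 343 and 574 CPM in the controls and at 522 and 713 CPM with vehicle, with overlap. These control and vehicle mice also differed in age, at 10 and 8 weeks.

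The difference between genotypes in this step from control to vehicle was tested as an interaction. For R6/2 minus wild type it was -2.87 for Smox (SE 0.55, 95% interval -4.07 to -1.67, adjusted p = 0.51) and -2.13 for Amd1 (SE 0.53, adjusted p = 0.51), with unadjusted p of 7.6e-05 and 9.3e-04. edgeR called 0 members, 2 of which had an unadjusted p below 0.05, and 0% of all genes (727 at an unadjusted p below 0.05, 20 called by DESeq2). DESeq2 called 2 members, Smox (adjusted p = 2.2e-04) and Amd1 (adjusted p = 0.04). For Hsf1-/- minus wild type it was -1.81 for Smox (SE 0.54, adjusted p = 0.19) and -1.84 for Amd1 (SE 0.527, adjusted p = 0.18), where edgeR called 0 members against 0.0654% of all genes, 2 had an unadjusted p below 0.05 and DESeq2 called the same 2 members. Between control and vehicle mice, Y-linked expression changed in wild type but not in Hsf1-/- mice. Age changed from 10 to 8 weeks in Hsf1-/- but not in wild type mice. In the Hsf1-/- minus wild type difference these cannot be told apart from the genotype. The same wild type vehicle mice stand in the step from control to vehicle, in the comparison with R6/2 vehicle mice and in the response to HSP990, which are therefore not independent.

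After HS, no member was called in any genotype. Smox came closest in wild type muscle, at 461 and 339 CPM after HS against 206 and 210 CPM in the controls. The groups did not overlap, and the log2 fold change was 0.94 (SE 0.383, 95% interval 0.11 to 1.78, adjusted p = 0.31), with a call (adjusted p = 0.011) when only the 4 libraries were fitted. Of 8 members, 0 were called in wild type mice against 2.06% of all genes, 1 had an unadjusted p below 0.05 and DESeq2 called 0. Amd1 at 34.8 and 37.2 CPM and Odc1 at 22.5 and 22.6 CPM had log2 fold changes of -0.18 (95% interval -1.0 to 0.64) and 0.35 (95% interval -0.52 to 1.21).

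In R6/2 mice 0 members were called after HS against 0.0436% of all genes, 0 had an unadjusted p below 0.05 and DESeq2 called 0. The 2 R6/2 mice given HS differed strongly from each other. Smox was at 52.7 CPM in replicate 1 and at 117 CPM in replicate 2, Amd1 at 23.4 and 50 CPM, and Srm the other way at 12.1 and 5.86 CPM. The log2 fold change of Smox was 0.72 (95% interval -0.12 to 1.55, adjusted p = 0.67). In Hsf1-/- mice 0 members were called against 0.00727% of all genes, 2 had an unadjusted p below 0.05 and DESeq2 called 0. These were Amd1, at 51.5 and 65.4 CPM after HS against 76.0 and 138 CPM (log2 fold change -0.88, adjusted p = 0.49), and Sat1, at 21.6 and 10.2 CPM against 10.8 and 8.93 CPM (log2 fold change 0.68, adjusted p = 0.45). The responses to HS did not differ by the test between R6/2 and wild type (0 members called against 0.0727% of all genes, 0 at an unadjusted p below 0.05) or between Hsf1-/- and wild type mice (0 against 0.16%, 0 at an unadjusted p below 0.05), and DESeq2 called 0 in both. For Smox the difference was -0.23 (95% interval -1.40 to 0.95) in R6/2 and -0.80 (95% interval -1.97 to 0.37) in Hsf1-/- mice.

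Azin1 rose with HSP990 in wild type muscle. Azin1 was at 272 and 228 CPM with HSP990 and at 105 and 78.9 CPM with vehicle, and no other library of the 24 was above 127 CPM. It rose by 1.44 on the log2 scale (SE 0.219, adjusted p = 0.0014), or 2.72-fold, and with wild type vehicle replicate 2 left out the call did not hold (log2 fold change 1.25, adjusted p = 0.068). This was 1 of 8 members, against 1.85% of all genes. In R6/2 mice Azin1 was at 86.1 and 106 CPM with HSP990 against 74.7 and 50.1 CPM, and in Hsf1-/- mice at 127 and 116 CPM against 64.1 and 95.7 CPM. The groups did not overlap in either genotype, and the log2 fold changes of 0.63 (95% interval 0.16 to 1.10, adjusted p = 0.25) and 0.61 (95% interval 0.14 to 1.08, adjusted p = 0.37) did not pass. The difference of the responses was -0.82 in R6/2 (95% interval -1.48 to -0.15, adjusted p = 0.58) and -0.83 in Hsf1-/- mice (95% interval -1.50 to -0.17, adjusted p = 0.53).

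The 3 genes that were high in wild type vehicle mice had lower values with HSP990. Smox was at 480 and 383 CPM against 1083 and 875 CPM, a log2 fold change of -1.18 (SE 0.384, adjusted p = 0.15), and Amd1 was at 110 and 91.1 CPM against 238 and 196 CPM, a log2 fold change of -1.11 (SE 0.373, adjusted p = 0.16). Neither passed in edgeR, and DESeq2 called both (adjusted p = 0.032 and 0.043), as did a fit of the 4 libraries alone (adjusted p = 0.039 and 0.037). With HSP990 Smox and Amd1 in these mice were above the levels in wild type controls of the HS experiment. Odc1, at 36.0 and 29.7 CPM against 38.8 and 37.2 CPM, had a log2 fold change of -0.21 (95% interval -1.06 to 0.64).

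Sat1 was higher with HSP990 in all 3 genotypes without passing the test. In Hsf1-/- mice it was at 17.2 and 16.2 CPM against 9.51 and 8.39 CPM (log2 fold change 0.90, 95% interval 0.30 to 1.51, adjusted p = 0.28). In R6/2 mice it was at 13.6 and 21.5 CPM against 12.0 and 10.6 CPM (0.64, adjusted p = 0.44), and in wild type mice at 14.1 and 13.1 CPM against 12.1 and 10.5 CPM (0.27, adjusted p = 0.74). In none of these did HSP990 and vehicle mice overlap, but with 2 mice against 2 exact permutation reaches no p under 0.333. The share of all genes without overlap was not counted. With HSP990, 0 members were called in R6/2 mice against 1.43% of all genes and 0 in Hsf1-/- mice against 0.218%, with 2 at an unadjusted p below 0.05 in each and 0 called by DESeq2. Of the differences between responses, 0 members were called for R6/2 minus wild type against 0% of all genes (981 at an unadjusted p below 0.05, 49 called by DESeq2), with 3 members at an unadjusted p below 0.05, and 0 for Hsf1-/- minus wild type against 0.422%, with 1, and DESeq2 called 0 in both. For Smox the difference of R6/2 minus wild type was 1.47 (95% interval 0.29 to 2.66, adjusted p = 0.57).

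**Figure D4:**
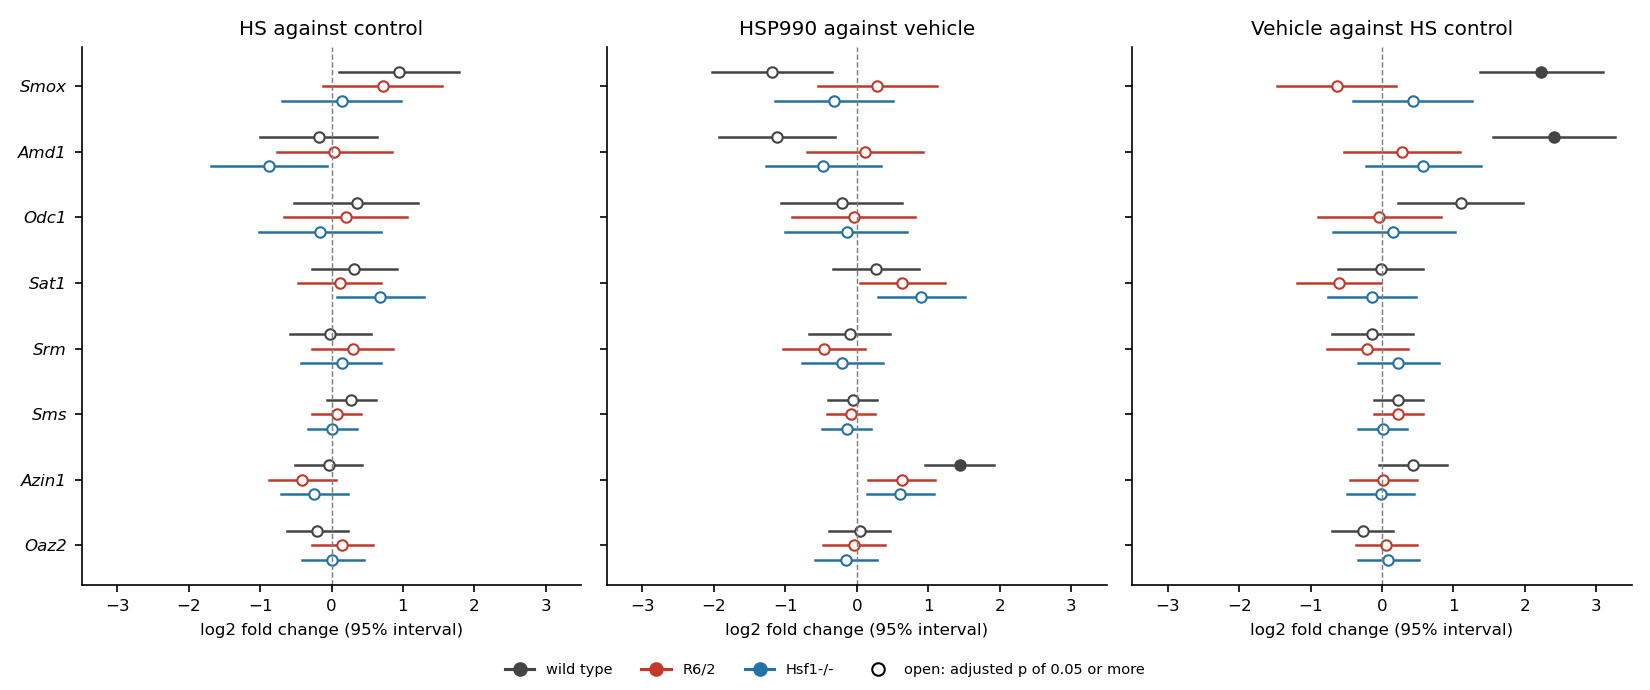
Fold change of the 8 genes (x axis, log2 with 95% interval) after HS against control, with HSP990 against vehicle, and of vehicle against HS control, in 3 genotypes shown by colour, with filled points for an adjusted p below 0.05. The filled points are Azin1 with HSP990 in wild type mice at 1.44 and, for vehicle against control in wild type mice, Smox at 2.23 and Amd1 at 2.41.

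Some of the denervation and atrophy genes were called in 3 comparisons in which edgeR called no member. After HS in wild type mice 3 of 12 rose, where 2.06% of all genes passed, among them Cdkn1a by 2.43 (adjusted p = 0.035) and Trim63 by 2.18 (adjusted p = 0.0032). With HSP990 in R6/2 mice 3 of 12 fell, where 1.43% of all genes passed, among them Cdkn1a by 2.66 (adjusted p = 0.026) and Trim63 by 1.43 (adjusted p = 0.049). In the control mice 1 of 12, Musk, was higher in Hsf1-/- than in wild type, by 1.37 (adjusted p = 0.027), where 1.93% of all genes passed. With vehicle and over both experiments edgeR called 0 of 12 between these genotypes. The control mice of the 2 genotypes also differed in age and in Y-linked expression, which cannot be told apart from the genotype. Of the 20 wider pathway genes edgeR called 0 for HS, HSP990 or vehicle against control in any genotype. In these comparisons 1 to 4 had an unadjusted p below 0.05, and DESeq2 called 1 for HS in wild type mice and 0 in the others.

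In untreated Hsf1-/- muscle, no member passed the test against wild type, where 0.974% of all genes did, 0 had an unadjusted p below 0.05 and DESeq2 called 0. Smox was at 343 to 713 CPM in the 4 Hsf1-/- mice, within the 206 to 1083 CPM of the wild type mice, with a log2 fold change of 0.24 (95% interval -0.35 to 0.82). In the controls alone, Smox at 343 and 574 CPM was above the 206 and 210 CPM of wild type (log2 fold change 1.14, 95% interval 0.30 to 1.98, adjusted p = 0.13), and Amd1 at 76.0 and 138 CPM was above 43.1 and 38.5 CPM (1.39, 95% interval 0.57 to 2.22, adjusted p = 0.067). There, 0 members were called by edgeR against 1.93% of all genes, 2 had an unadjusted p below 0.05, and DESeq2 called both genes (adjusted p = 0.027 and 0.0042). These control mice also differed in Y-linked expression and in age, which cannot be told apart from the genotype. With vehicle, where Y-linked genes were expressed in both genotypes but ages were 8 and 12 weeks, Smox was lower in Hsf1-/- (log2 fold change -0.66, 95% interval -1.49 to 0.16, adjusted p = 0.64), 0 members were called against 0.0872% of all genes, 0 had an unadjusted p below 0.05 and DESeq2 called 0.

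Ordered by group mean, Smox ran from 979 CPM in wild type vehicle mice through 617 CPM in Hsf1-/- vehicle mice to 506, 494 and 459 CPM in Hsf1-/- mice with HS, HSP990 and control treatment. It was at 431 and 400 CPM in wild type mice with HSP990 and HS, and at 208 CPM in wild type controls. All R6/2 groups came last, with 84.6 CPM after HS, 51.5 CPM in controls, 40.6 CPM with HSP990 and 33.1 CPM with vehicle. Neighbours from Hsf1-/- HS mice down to wild type HS mice overlapped in their values, as did the R6/2 HS and control mice. The vehicle mice of wild type and of Hsf1-/- were each above the next group without overlap, and the wild type controls stood apart from both neighbours. Over all 8 mice of a genotype, the Smox medians were 422 CPM in wild type, 42.3 CPM in R6/2 and 515 CPM in Hsf1-/- mice.

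For Smox, Amd1 and Odc1, mice of 1 group differed most in the Hsf1-/- genotype. The higher of 2 mice had up to 2.66 times the Smox level of the lower in Hsf1-/- groups, up to 2.21 times in R6/2 and up to 1.36 times in wild type groups. For Odc1 the highest ratios were 2.48, 1.39 and 1.43, and for Amd1 2.44, 2.13 and 1.22. In all 4 Hsf1-/- groups the mouse with more Smox also had more Amd1 and more Odc1 and less Oaz2. In the HSP990 group, for example, Smox was at 718 and 270 CPM, Amd1 at 164 and 67.3 CPM, Odc1 at 39.9 and 20.4 CPM and Oaz2 at 82.1 and 96.8 CPM in replicates 1 and 2. The summed adipocyte markers were at 902 CPM in replicate 1 of this group and at 170 CPM in replicate 2, and their part in the difference was not tested. In wild type mice Amd1 went with Smox in 2 of 4 groups and Odc1 in 3 of 4, and in R6/2 mice each did in 1 of 4. Sms went with Smox in 4 of 4 R6/2 groups. The 2 Hsf1-/- HS mice hardly differed in Smox, at 504 and 508 CPM. How often other genes kept such an order in 4 groups was not counted, so the shared order is given without a test.

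**Figure D5:**
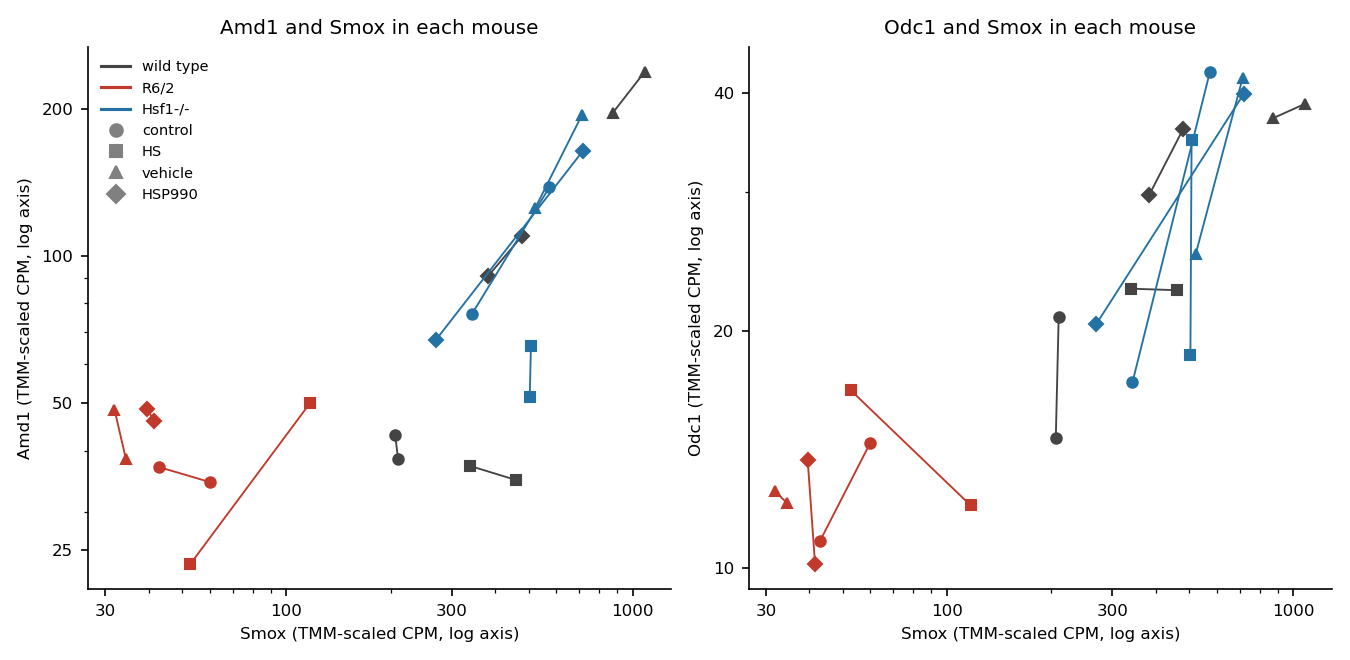
Level of Amd1 (left) and Odc1 (right) against that of Smox in each of 24 mice (both axes TMM-scaled CPM, log axes), with a line joining the 2 mice of a group, colour for genotype and symbol for treatment. The 4 lines of the Hsf1-/- groups rise to the right in both plots, from 67.3 to 164 CPM of Amd1 in the HSP990 group, and the R6/2 mice lie at the left with at most 117 CPM of Smox.

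The genes most like each member were sought among 11118 genes with a mean of at least 1 CPM, by Pearson's r of log2(CPM + 0.5) over the 24 libraries. The libraries share genotypes and treatments, so r reflects differences between groups as well as between mice, and it is given without a test. Smox was closest to Srl (0.963), Dnaja3 (0.958) and Jak2 (0.955). Odc1 was closest to Smox itself (0.878), then Pcyox1l (0.868) and Fam120a (0.866), and Amd1 to 1700001O22Rik (0.911), Polk (0.898) and Trim24 (0.881). For Srm the genes were Micos13 (0.898), Psma6 (0.896) and Prmt7 (0.891), for Azin1 Papola (0.870), Ubfd1 (0.866) and Dlgap4 (0.866), and for Oaz2 Pld3 (0.915), Trafd1 (0.915) and Gtpbp6 (0.907). Sat1 and Sms had no close match, with Rell1 (0.763), Hif1a (0.745) and Gclc (0.706) for Sat1 and 6430548M08Rik (0.693), Aatf (0.692) and Pus7 (0.663) for Sms.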

How the data were processed

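Polyadenylated RNA of quadriceps femoris muscle was sequenced from strand-specific, paired-end libraries of 24 mice. The authors mapped the reads to mm9, and the deposited table holds their raw counts per gene, without normalization, as whole numbers. Bowtie and DESeq2 are named in the submitters' processing notes, and the counting program and annotation are not given in the sources used here. Of 18669 gene numbers, 18594 were matched to a symbol.

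A gene was tested if 10 or more libraries had 2 or more counts of it, which left 13754 genes. These were scaled with TMM and fitted as 12 groups, leaving 12 residual degrees of freedom, by the quasi-likelihood method of edgeR 4.0.16 (limma 3.58.1, R 4.3.3), Benjamini-Hochberg adjustment over all genes and a threshold of 0.05. All 8 members passed this filter. The SE given is the absolute log2 fold change divided by the square root of the F statistic of its test, and not a separately fitted value. Intervals are built from it, use these degrees of freedom and are slightly wider than the moderated tests. With 2 mice a group, exact permutation reaches no p under 0.333 (two-sided), and the edgeR p-values therefore borrow the spread between mice over all groups and genes. The share of all genes whose groups did not overlap was not counted, so a lack of overlap is a description and not a test. Replicates are mice as the labels give them. Alternatives were DESeq2 1.42.0, RLE factors, library size only, no filter, filterByExpr, only the groups compared, a replicate block and leaving out each mouse. TMM without the 20 highest genes and the comparisons within controls or vehicle for Hsf1-/- mice, and of the vehicle step between genotypes, were chosen after seeing the data. Copies of transcripts were sought with minimap2 2.31, counting a copy as near-identical where it covered 50% or more of the transcript and its divergence did not exceed 0.02. The procedure was tested on simulated data with changes planted in a small part of the genes. No shift in library composition like that of R6/2 mice was planted, so the scaling of R6/2 levels was not tested there.

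The members and the gene lists were chosen with earlier results of these data known. The members are named in every comparison. Of each list, up to 4 called genes with the largest change are named for untreated R6/2 mice and up to 2 for other comparisons, and other list genes are named after their values were seen. The depth was 22450177 to 46599238 counts per library.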

Additional observations from a re-analysis of the deposited data

How the results depend on the processing

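Of 168 pairs of a member and a comparison, 13 were called, 32 were called in at least 1 setting and 136 in none. In untreated R6/2 against wild type mice the number of members called was 5 and stayed within 1.5 times of that in all alternatives run, though not for the same members with library size only. In the controls it was 1, and 4 with library size only and 2 with DESeq2, and it was 0 to 1 with 1 mouse left out. In the vehicle mice it was 4, and 2 to 3 with 1 mouse left out, the lowest without R6/2 vehicle replicate 2. For HS in wild type mice it was 0, and 1 with only the groups compared. For HSP990 in wild type mice it was 1, and 3 with DESeq2 and with only the groups compared, and 0 to 1 with 1 mouse left out. For vehicle against control in wild type mice it was 2, and 0 in each leave-one-out fit. For the controls of Hsf1-/- against wild type it was 0, and 2 with DESeq2 and with only the groups compared. For the difference of the vehicle step of R6/2 minus wild type, and of Hsf1-/- minus wild type, it was 0, and 2 with DESeq2 and 1 with only the groups compared. With library size only, Sms turned to 0.59, 0.52 and 0.65 and Azin1 to 0.26 and 0.12 in the untreated R6/2 comparisons, and with 1 mouse left out Sms ranged from -0.07 to 0.03 over both experiments, from -0.12 to 0.08 in the controls and from -0.13 to 0.08 in the vehicle mice. The cause was not tested, except that library size alone shifts all genes.

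With a replicate block the number of members called was the same in all comparisons, 5 in untreated R6/2 against wild type mice, and 4103 genes were called in place of 4194. The mice share only a number: over 13 comparisons of 2 groups the correlation of same-numbered deviations was -0.24 to 0.27 and above 0.1 in 3. A term for Y-linked expression could not be fitted, because it is the same in all mice of a group. With 2 mice a group, a member that did not pass is not shown to be alike in the groups.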
